A study of Mus musculus with 15 samples.

Results

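The 42 genes described here build and run the mitotic spindle: cyclins and kinases that start mitosis, checkpoint and kinetochore proteins, spindle motors, cytokinesis factors and condensins. They were taken by name, with earlier results of these data known. Each level came from a probe set (a group of array probes for one transcript) assigned to that gene alone, the one with the highest mean where a gene had several. All 42 of 42 had such a probe set, among 19938 genes measured. Levels are log2 values, so a difference of 1 is a 2-fold change, and errors of differences are SE.

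Expression was measured on 15 arrays from epithelial cells of the ventral prostate of FVB mice, in 5 groups of 3. Control arrays held primary cultures that carried no transduced gene. The other groups held stable lines made by transduction with c-myc, neuT (an activated form of the receptor Erbb2), ha-ras or v-src, called the Myc, NeuT, Ras and Src groups here. The series text counts 3 lines for each oncogene, and nothing says whether the controls came from separate animals, so p-values measure only the spread between these samples. All cells were collected near confluence without further treatment. Lines grew in DMEM with serum, whereas controls grew in a primary prostate medium and had the serum medium for the last night only, so medium and transformation cannot be told apart in comparisons with control. A level on these arrays is a share of the RNA, so more cells in mitosis and more transcript per mitotic cell cannot be told apart.

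Cells enter mitosis when cyclin-dependent kinase 1, bound to cyclin A or B, is switched on by Cdc25 phosphatases. Aurora and Polo-like kinases then build the spindle, kinetochores tie chromosomes to microtubules, and the spindle checkpoint holds back the anaphase-promoting complex until all chromosomes are attached. Most of these genes are transcribed late in the cell cycle. In that programme, DREAM, MuvB and FoxM1 complexes act on promoters through a short element, the cell cycle homology region (CHR), and NF-Y binds CCAAT boxes.

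Promoter sequence was read from the RefSeq table (GRCm38.p6), which held 35 of the 42 genes, with 37 promoters of 300 bases each (250 before to 50 after the start). The CHR was searched as TTTGAA and the CCAAT box as CCAAT, on both strands, and no CHR match overlapped a CCAAT match in these promoters. A CHR match was present in 30 of the 37 promoters (81.1%), against 17.9% of all 32851 promoters in the table. CCAAT was present in 28 (75.7%), against 37.4% of all promoters. Both were in 25 (67.6%), against 7.0%. By gene, 28 of 35 had a CHR match, 25 of them within 50 bases of the start. The 7 without one were Birc5, Bub1, Cenpe, Kif18a, Mad2l1, Nek2 and Nuf2. The following stretches run from 100 bases before to 50 after the start, 5′ to 3′ on the strand of the gene, with CHR and CCAAT matches in capitals (TTCAAA and ATTGG are matches on the opposite strand). They are shown for 5 genes with differing patterns of expression, and genes with a CHR match were taken first. Kif11 rose with every oncogene and passed no test between oncogenes with all 15 arrays. Plk1 and Aurka were highest in the NeuT group, Ccnb2 was near control in the Src group, and Spc25 had the smallest rise.
Kif11, chr19:37376282-37376431, plus strand: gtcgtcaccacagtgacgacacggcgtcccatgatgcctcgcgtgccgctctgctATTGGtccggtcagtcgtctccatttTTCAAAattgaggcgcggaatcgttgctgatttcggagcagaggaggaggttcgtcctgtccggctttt
Plk1, chr7:122159335-122159484, plus strand: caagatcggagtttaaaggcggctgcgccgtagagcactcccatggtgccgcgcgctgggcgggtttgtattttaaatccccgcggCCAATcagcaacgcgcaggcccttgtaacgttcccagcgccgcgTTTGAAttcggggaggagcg
Aurka, chr2:172370521-172370670, minus strand: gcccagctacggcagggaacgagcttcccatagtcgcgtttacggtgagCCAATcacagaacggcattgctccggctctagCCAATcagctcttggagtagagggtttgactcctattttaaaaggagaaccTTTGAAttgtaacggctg
Ccnb2, chr9:70421505-70421654, minus strand: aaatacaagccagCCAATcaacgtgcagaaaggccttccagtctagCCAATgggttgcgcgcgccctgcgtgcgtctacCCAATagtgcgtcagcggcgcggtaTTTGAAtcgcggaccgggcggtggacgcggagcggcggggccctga
Spc25, chr2:69206164-69206313, minus strand: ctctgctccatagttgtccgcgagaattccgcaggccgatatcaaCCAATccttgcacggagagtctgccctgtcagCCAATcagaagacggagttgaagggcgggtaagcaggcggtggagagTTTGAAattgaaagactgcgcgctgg
Each of the 5 stretches held a CHR match, which the choice of genes had fixed, and at least 1 CCAAT match. Over the genes with a promoter in the table, the median rise in the pooled lines was 1.14 with a CHR match and 1.15 without one. These matches are a description of the letters and not of bound sites.

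Array medians over all probe sets lay between 6.19 and 6.32. The transduced genes gave a mixed check of the labels. Erbb2 was higher in the NeuT arrays (mean 9.50) than in the controls (7.80), by 1.70 ± 0.13 (adjusted p = 4.27e-07). In the arrays labelled Myc, the mean of Myc was 8.78, below the 9.70 of the controls, a difference of -0.92 ± 0.19 (adjusted p = 0.00207). With a mean of 10.97 in the arrays labelled NeuT, Myc was above control by 1.26 ± 0.19 (adjusted p = 0.000189). In those labelled Src its mean was 10.47, above control by 0.77 ± 0.19 (adjusted p = 0.00926), and the Src arrays exceeded the Myc arrays by 1.69 ± 0.19 (adjusted p = 2.81e-05). For Src the means were 7.08 (arrays labelled Src) and 7.04 (controls; adjusted p = 0.743), and Hras was not analysed here. Whether these probes detect a transduced copy was not tested, so "Myc" and "Src" below mean the arrays labelled so. The epithelial genes Epcam, Cdh1 and Cldn7 averaged 8.74 to 10.58 in every group except Ras, where their mean was 5.37 to 5.76. Single genes departed from this average. Cldn7 was at 7.29 to 7.93 in the Src arrays, against 10.26 to 10.62 in the controls. In the Myc arrays Cdh1 (9.51 to 9.70) was below its control range (10.86 to 11.33), whereas Epcam (9.75 to 9.89) was not (9.53 to 9.78). Basal epithelial genes (6 of 6 measured, Krt5 and Trp63 among them) averaged 9.56 to 10.11 in the control arrays, 9.87 to 10.14 in the Src, 7.93 to 8.05 in the Myc, 6.67 to 6.74 in the NeuT and 5.77 to 5.96 in the Ras arrays. These genes did not move together. In the Src arrays Krt5 (12.13 to 12.25) was above the controls (10.58 to 11.21), and Trp63 (9.51 to 9.66) was too (7.55 to 8.05). Krt15 (7.08 to 8.18) was below its control range there (9.87 to 10.37). Itgb4 was at 9.07 to 9.59 in the NeuT arrays and 8.61 to 9.22 in the controls, unlike the list average. The luminal list (5 of 7 measured, the keratins Krt8, Krt18 and Krt19 among them) averaged 9.63 to 9.78 in the controls, 8.26 to 9.05 in the Myc, NeuT and Src arrays and 6.27 to 7.10 in the Ras arrays. In the NeuT arrays, Krt8 (12.81 to 12.88) and Krt18 (12.16 to 12.33) lay within their control ranges (12.78 to 12.95 and 11.90 to 12.48). Krt19 (10.83 to 11.32) was below its control range there (11.49 to 12.01). Tmprss2 was at 8.47 to 8.86 in the controls and 5.30 to 5.88 in the oncogene arrays. Within the luminal list, the secretory protein probasin (Pbsn) was at 2.99 to 3.29 in all arrays.

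Control array 3 stood apart from control arrays 1 and 2. It was lower than their mean in 41 of the 42 genes, with a median difference of -0.56 and the largest, -0.82, for Kif11. Across all 19938 genes, 12287 were lower in that array, with a median difference of -0.06, and 685 were higher by 2-fold or more. Of the 42 genes, only Spc25 was higher in that array, by 0.78. Of 14 kidney tubule genes, 12 exceeded the other controls there by 2-fold or more, and their mean level there was 9.47, against 5.68 and 5.76 in the other controls and 5.66 to 5.87 in the oncogene arrays. Among them, the kidney androgen-regulated gene Kap was at 12.10 against a mean of 4.80 in control arrays 1 and 2, and uromodulin (Umod) at 11.03 against 5.70. Of 8 endothelial genes 5 did so as well (list mean 6.91 against 5.52 and 5.57), but 0 of 7 leukocyte, 0 of 8 fibroblast and 0 of 5 smooth muscle genes did. The basal list was also lower in that array, with a median difference of -0.54. The part of this kidney RNA in the mitotic levels was not tested, and the counts and medians against control, over the 42 genes and over each further list, are therefore also given without control array 3.

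**Figure D1:**
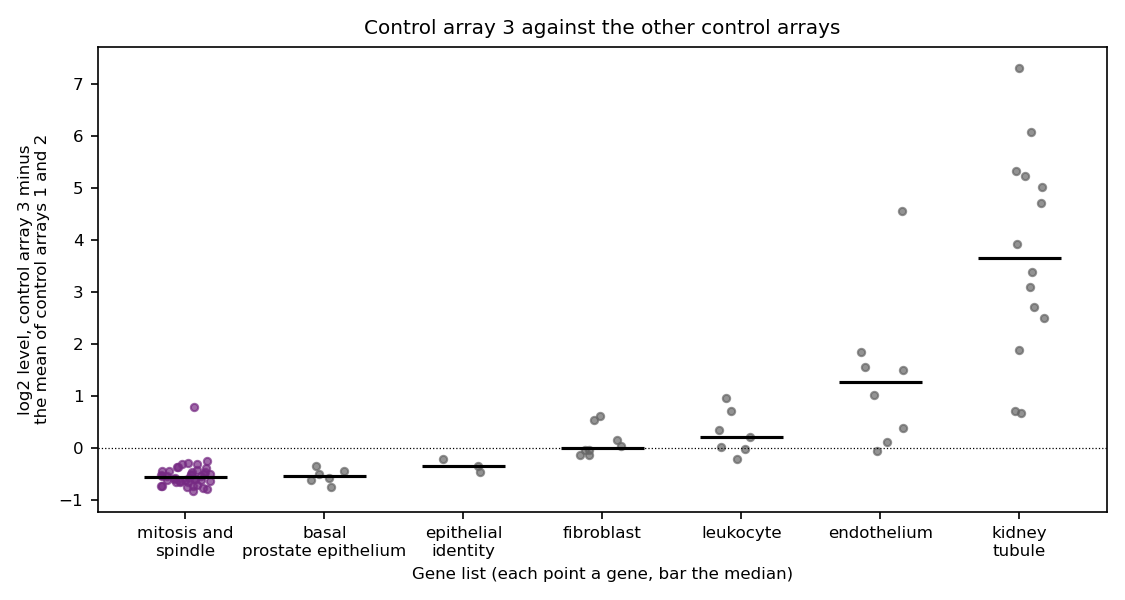
Difference in log2 level between control array 3 and the mean of control arrays 1 and 2 (vertical axis) for the 42 mitosis and spindle genes and for 6 marker lists (horizontal axis), each point a gene and each bar a list median. Mitotic genes sit near -0.56 with Spc25 alone above 0, and 12 of 14 kidney tubule genes lie above 1.

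Mitotic genes were higher in the transformed lines than in the primary cultures almost without exception. All 42 rose in the pooled oncogene groups, with a median log2 fold change of 1.16 (range 0.55 to 1.60), whereas 15.4% of all genes rose, 13.4% fell, and the median over all genes was 0.04. The largest pooled rises were in Kif11, the kinesin that pushes spindle poles apart (1.60 ± 0.14), Nuf2, a subunit of the microtubule-binding Ndc80 complex (1.59 ± 0.11), and the checkpoint kinase Bub1b (1.57 ± 0.14). The smallest were in Spc25, another Ndc80 complex subunit (0.55 ± 0.13), the microtubule bundler Prc1 (0.68 ± 0.12) and Cdc20, the activator of the anaphase-promoting complex (0.68 ± 0.09). In 36 of the 42 genes, every one of the 12 oncogene arrays was above every control array, which held for 5.44% of all genes. The 6 that overlapped were Ccnb2, Cdc20, Spc25, Kif22, Prc1 and Ect2. Against control arrays 1 and 2 alone the count was 37 (all genes 7.08%). Without control array 3, all 42 still rose in the pooled lines, with a median of 0.98 (12.3% of all genes rose). The smooth muscle list moved with the same comparison on average, though not in every gene. Its 5 genes, all measured, averaged 7.48 to 7.94 in the controls, 5.84 to 5.92 in the Myc, 5.87 to 5.95 in the NeuT, 5.78 to 6.59 in the Ras and 6.35 to 6.49 in the Src arrays. Acta2, the smooth muscle actin, was at 9.88 to 10.54 in the controls and 6.06 to 8.70 in the oncogene arrays, and the 8 fibroblast genes averaged 6.20 to 6.35 and 5.93 to 6.68. The part of these markers in the mitotic rise was not tested, and in bulk samples fewer cells of a type and less RNA per cell cannot be told apart.

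**Figure D2:**
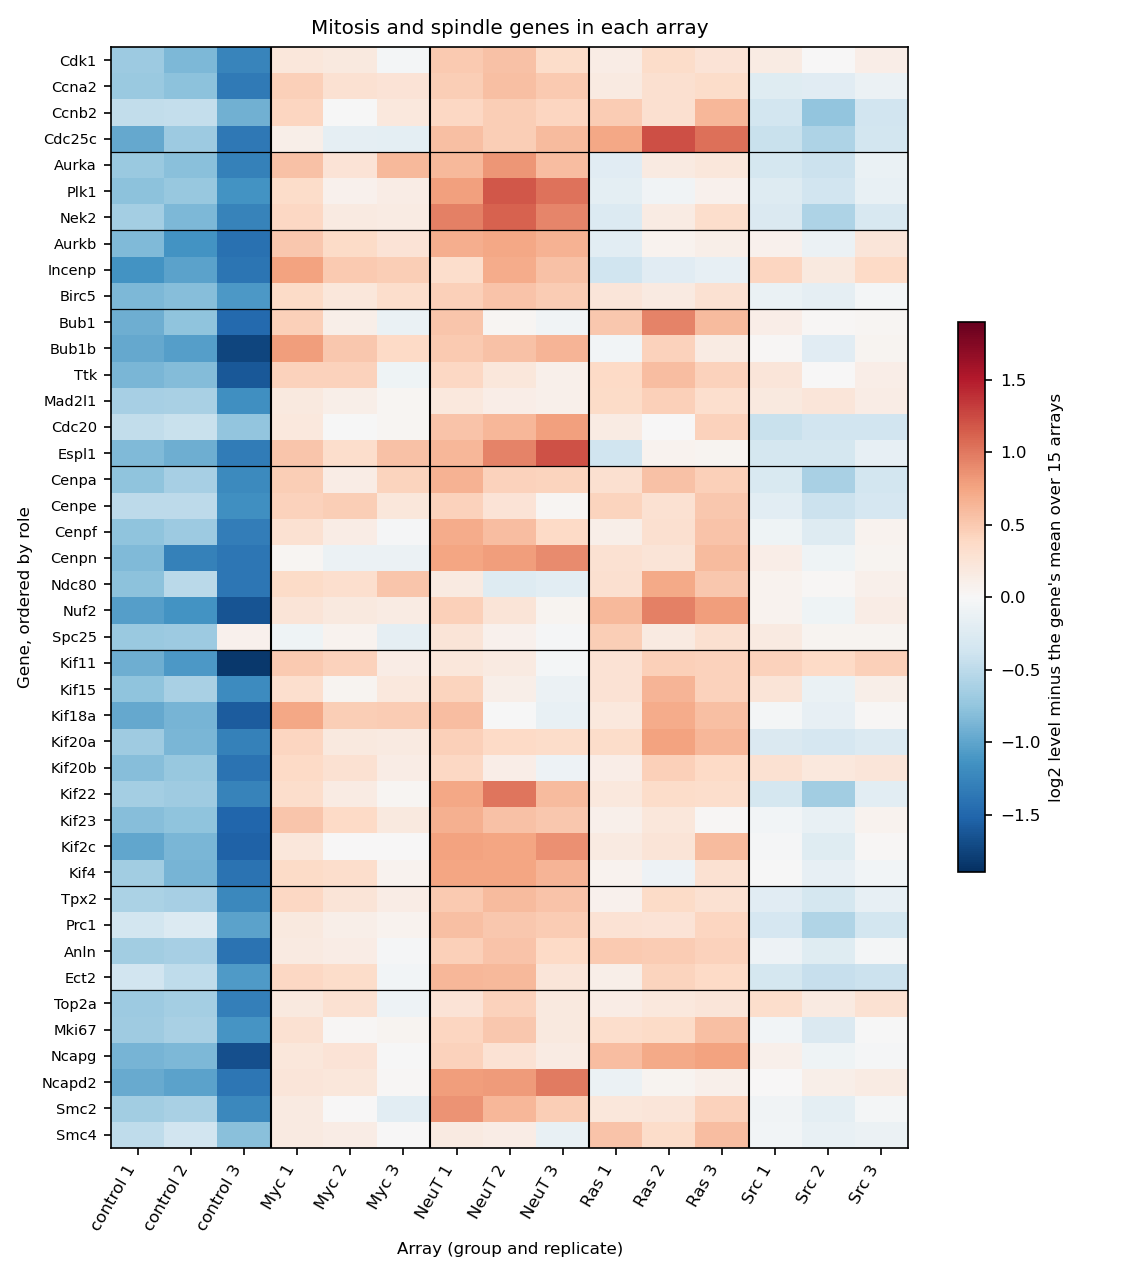
Log2 level of each of the 42 genes (rows, ordered by role) in each of the 15 arrays (columns, grouped), shown as the difference from the gene's mean over all arrays on the colour scale. Control columns are lowest in nearly every row, control array 3 most of all, and the Src columns are the palest of the oncogene groups.

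Each oncogene was also set against control separately. These 4 comparisons share the 3 control arrays, so they are not independent of each other. In the Myc group 41 genes rose (all genes: 15.9% rose, 12.7% fell) with a median of 1.18, and Spc25 was the exception (0.38 ± 0.17, adjusted p = 0.121). The largest rises there were in Bub1b (1.82 ± 0.18), the Aurora B scaffold Incenp (1.75 ± 0.12) and Kif18a, a kinesin that limits microtubule length (1.70 ± 0.20). Cdc20 (0.62 ± 0.12) and the condensin ATPase Smc4 (0.65 ± 0.11) rose least after Spc25. In the NeuT group all 42 rose (all genes: 15.2% rose, 11.6% fell), with a median of 1.40. Ncapd2, a condensin I subunit (1.98 ± 0.11), the centromere protein Cenpn (1.98 ± 0.13) and separase (Espl1, 1.96 ± 0.16), the protease that opens cohesin at anaphase, led the rise. Spc25 (0.54 ± 0.17), Smc4 (0.60 ± 0.11) and Ndc80 (0.80 ± 0.18) came last.

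In the Ras group all 42 rose as well (all genes: 13.3% rose, 14.2% fell), with a median of 1.17. Nuf2 (2.06 ± 0.14), the phosphatase Cdc25c (2.02 ± 0.16) and the condensin subunit Ncapg (1.82 ± 0.17) rose most, and Cdc20 (0.75 ± 0.12), Spc25 (0.75 ± 0.17) and Plk1 (0.82 ± 0.13) least. In the Src group 36 rose (all genes: 14.2% rose, 12.2% fell), with a median of 0.82. Kif11 (1.71 ± 0.18), Incenp (1.51 ± 0.12) and Nuf2 (1.31 ± 0.14) rose most. The 6 genes that did not pass the test with Src were Ccnb2 (0.13 ± 0.15, adjusted p = 0.558), Prc1 (0.13 ± 0.15, 0.555), Cdc20 (0.16 ± 0.12, 0.329), Ect2 (0.25 ± 0.18, 0.313), Cenpe (0.41 ± 0.16, 0.0716) and Kif22 (0.47 ± 0.17, 0.0529). No mitotic gene fell with any oncogene.

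Median rises were smaller without control array 3. All 42 rose in the Myc (median 1.00, 14.4% of all genes), NeuT (1.19, 13.5%) and Ras groups (1.01, 12.1%), and 33 rose in the Src group (0.70, 11.6%). Spc25 was called in the Myc group once that array was left out (0.64 ± 0.11, adjusted p = 0.000324). The 3 further genes that missed the threshold with Src were Cdc25c, Nek2 and Cenpa. Prc1 (-0.11 ± 0.09, adjusted p = 0.442) and Ccnb2 (-0.02 ± 0.14, adjusted p = 0.928) then had a negative difference in the Src group.

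**Figure D3:**
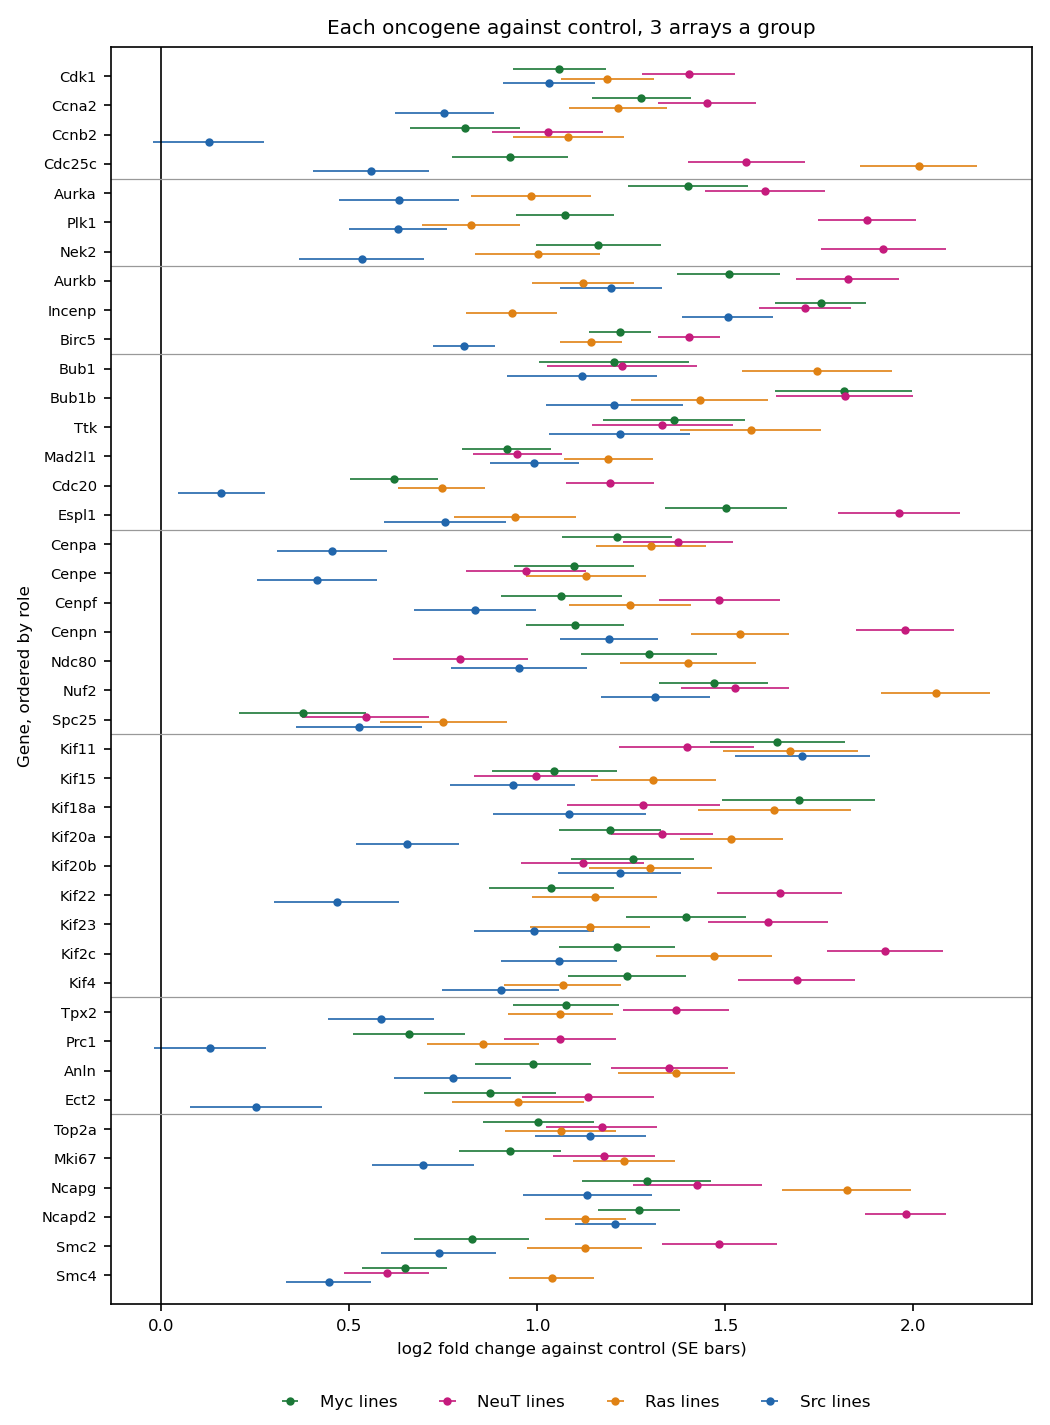
Log2 fold change against control (horizontal axis, bars SE) of each of the 42 genes (vertical axis, ordered by role) for the Myc, NeuT, Ras and Src groups, 3 arrays each. All points lie above 0; the Src points trail for Ccnb2, Prc1, Cdc20 and Ect2, and lead for Kif11.

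The size of the rise differed between oncogenes. An F test over the 4 oncogene groups, which uses no control level, called 32 of the 42 genes (42.1% of all genes). The 10 that did not pass were Cdk1, Bub1, Ttk, Mad2l1, Spc25, Kif11, Kif15, Kif18a, Kif20b and Top2a. Among the oncogene groups, the highest mean was that of NeuT for 23 genes, Ras for 16, Myc for 2 and Src for 1, and the lowest was that of Src for 32. Over all genes the highest mean fell to NeuT in 20.3%, Ras in 25.8%, Myc in 21.2% and Src in 32.7%, and the lowest to Src in 18.5%.

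Between the NeuT and Ras groups, most of the called genes were higher with NeuT. Of the 42 genes, 14 were higher in the NeuT group (all genes 16.5%). Only 4 were higher in the Ras group, a share below the 11.6% of all genes. With differences given as NeuT minus Ras, higher with NeuT were the kinases Plk1 (1.06 ± 0.13), Nek2 (0.92 ± 0.17) and Aurka (0.62 ± 0.16), all 3 chromosomal passenger genes (Aurkb, Incenp and Birc5), Espl1 and Cdc20, Cenpn, the kinesins Kif22, Kif23, Kif2c and Kif4, and Ncapd2. Higher with Ras were Ndc80 (-0.60 ± 0.18), its partner Nuf2 (-0.53 ± 0.14), Cdc25c (-0.46 ± 0.16) and Smc4 (-0.44 ± 0.11). Without NeuT array 3 the count of genes that differed was 10, and without Ras array 2 it was 11, in place of 18. Shares of all genes were not counted for these fits.

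Src lines had the lowest levels. Against NeuT, 28 genes were lower in the Src group (all genes 12.2%) and 0 higher (7.95%), with a median difference of 0.63. Against Ras, 18 were lower in the Src group (12.1%) and Incenp alone was higher there (14.1%; -0.57 ± 0.12, Ras minus Src). Against Myc, 16 were lower in the Src group (11.4%) and 0 higher (7.57%). This last count was 6 without Myc array 1 and 9 without Src array 2. The share of all genes in those fits was not counted. The median differences were 0.41 for Ras and 0.32 for Myc. Kif11 (-0.31 ± 0.18, NeuT minus Src, adjusted p = 0.272) and Top2a (0.03 ± 0.15, adjusted p = 0.924) were not among the lower genes. Without control array 3, Kif11 passed the threshold and was higher in the Src group than in the NeuT group.

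By these counts, the Myc group lay between the NeuT and Src groups. Against NeuT, 9 genes were lower in the Myc group (all genes 7.95%) and 0 higher (6.99%): Cdc25c, Plk1, Nek2, Cdc20, Cenpn, Kif22, Kif2c, Ncapd2 and Smc2. Against Ras, Aurkb, Incenp and Espl1 were higher in the Myc group (3 genes, all genes 16.6%), and Cdc25c, Cenpn, Nuf2, Ncapg and Smc4 lower (5 genes, 11.8%). Together these 8 were 19% of the 42 genes, below the 28.4% of all genes that differed in either direction. These counts were small and moved with single arrays. The difference against Ras was called for 16 genes without control array 3, 3 without Myc array 3 and 5 without Ras array 3, in place of 8, and that against NeuT for 17 without control array 3. Among fits with an array left out, shares of all genes were counted only without control array 3.

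Leaving out control array 3 changes the 6 differences between oncogenes through the shared estimate of the spread alone, since no control level enters them. Counts in either direction were then 17 for Myc against NeuT (18.5% of all genes), 16 for Myc against Ras (31.9%), 20 for Myc against Src (22.8%), 25 for NeuT against Ras (31.4%), 30 for NeuT against Src (23.7%) and 26 for Ras against Src (30.2%). Within groups the median SD of the 42 genes was 0.34 in the controls, 0.14 in the Myc and NeuT groups, 0.15 in the Ras group and 0.10 in the Src group.

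**Figure D4:**
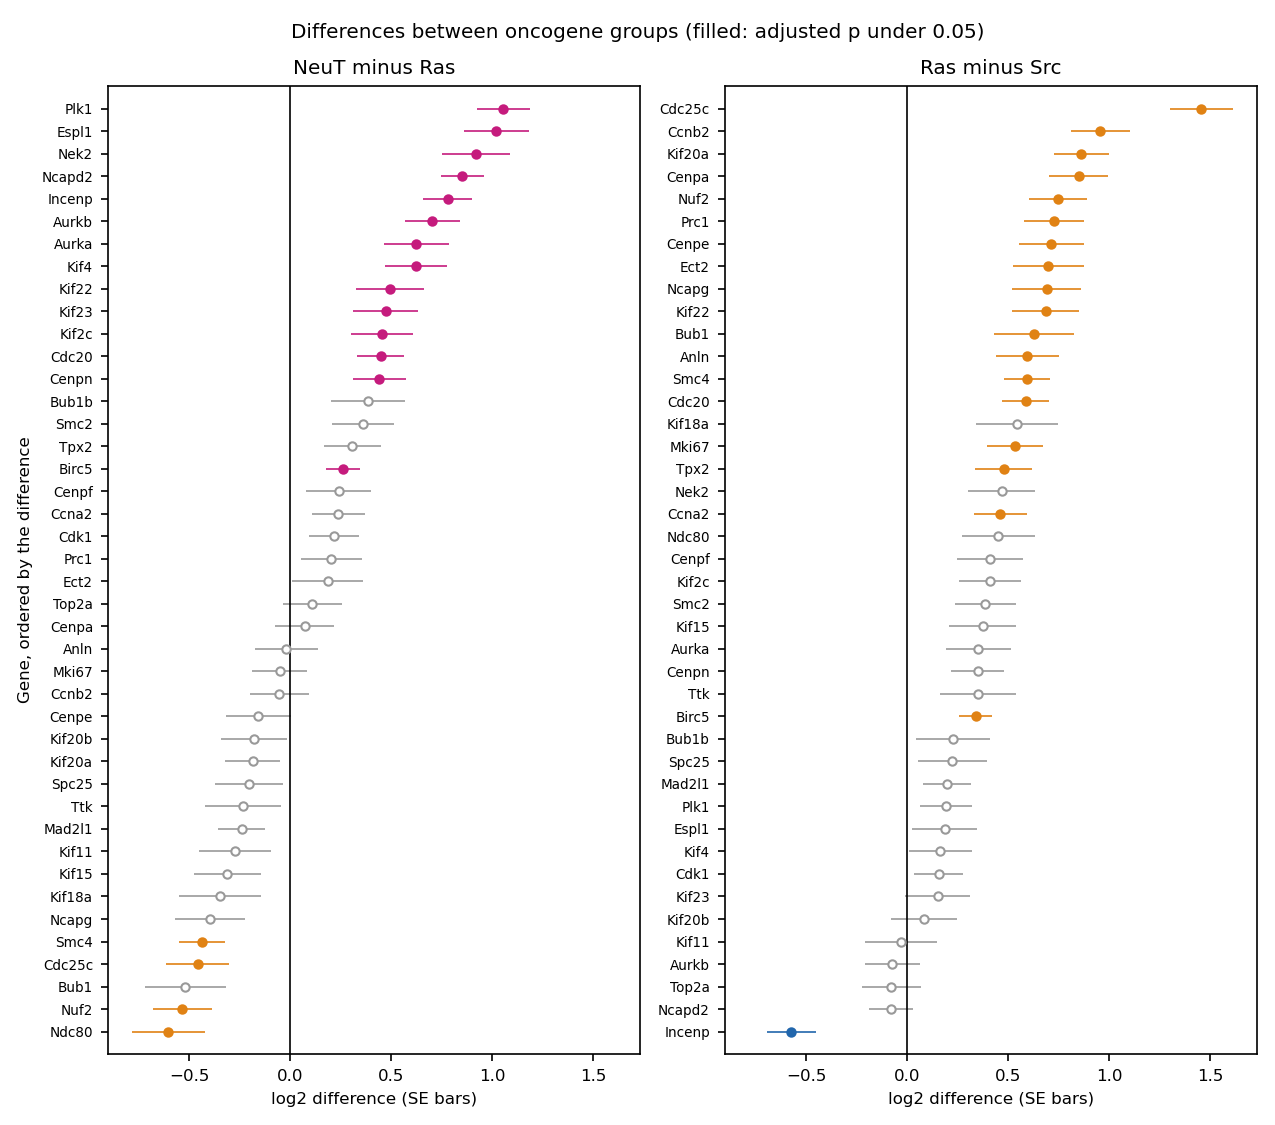
Log2 differences (horizontal axis, bars SE) of the 42 genes (vertical axis, ordered by size) for NeuT minus Ras and for Ras minus Src, filled where the adjusted p was under 0.05 and coloured by the higher group. Plk1, Espl1 and Nek2 top the NeuT side at about 1, Ndc80 and Nuf2 the Ras side, and Incenp is the one filled point on the Src side.

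Among the genes of mitotic entry (Cdk1, Ccna2, Ccnb2 and Cdc25c), all 4 rose with Myc, NeuT and Ras, and 3 with Src. Cdc25c, the phosphatase that removes inhibitory phosphates from Cdk1, was at 7.21, 7.50 and 6.84 in control arrays 1, 2 and 3, 8.30, 8.02 and 8.01 in the Myc arrays, 8.76, 8.66 and 8.80 in the NeuT arrays, 8.93, 9.42 and 9.25 in the Ras arrays, and 7.77, 7.61 and 7.84 in the Src arrays. Its Ras arrays were the highest and its control arrays the lowest, and no oncogene array overlapped the controls. The Ras mean exceeded that of the controls by 2.02 ± 0.16 (adjusted p = 2.5e-07), that of the Myc group by 1.09 ± 0.16 (adjusted p = 9.73e-05) and that of the Src group by 1.46 ± 0.16 (adjusted p = 7.63e-06). Ccnb2, one of the B cyclins that activate Cdk1, was at 9.31, 9.34 and 8.88 in control arrays 1, 2 and 3, 10.20, 9.78 and 9.98 in the Myc arrays, 10.18, 10.25 and 10.19 in the NeuT arrays, 10.28, 10.09 and 10.43 in the Ras arrays, and 9.44, 9.05 and 9.43 in the Src arrays. Src arrays overlapped the controls, and Src array 2 was below control arrays 1 and 2, whereas the other 3 groups lay above. Ras exceeded Src by 0.96 ± 0.15 (adjusted p = 0.000229). Cdk1 (10.74 ± 0.08 in the Src arrays, SD, n = 3, and 9.71 ± 0.29 in the controls) and Ccna2 (9.35 ± 0.06 and 8.59 ± 0.35) rose in all 4 groups.

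The 3 mitotic kinases showed the clearest NeuT pattern, with each higher in NeuT than in both the Ras and the Src groups. Plk1, the Polo-like kinase of centrosome maturation and spindle assembly, was at 7.91, 7.97 and 7.55 in control arrays 1, 2 and 3, 9.04, 8.77 and 8.83 in the Myc arrays, 9.46, 9.87 and 9.73 in the NeuT arrays, 8.50, 8.62 and 8.77 in the Ras arrays, and 8.44, 8.32 and 8.55 in the Src arrays. The NeuT arrays were above all others, Myc arrays came next, and Ras and Src arrays overlapped each other. NeuT exceeded control by 1.88 ± 0.13 (adjusted p = 1.5e-07) and exceeded Ras by 1.06 ± 0.13 (adjusted p = 2.74e-05). Nek2, a kinase that separates centrosomes, was at 7.26, 7.06 and 6.64 in control arrays 1, 2 and 3, 8.31, 8.08 and 8.07 in the Myc arrays, 8.87, 9.03 and 8.83 in the NeuT arrays, 7.65, 8.07 and 8.25 in the Ras arrays, and 7.63, 7.32 and 7.61 in the Src arrays. NeuT arrays were again the highest, Ras arrays overlapped the Myc range and reached lower, and the lowest Src array lay close to the highest control. NeuT exceeded Src by 1.39 ± 0.17 (adjusted p = 3.85e-05) and exceeded Myc by 0.76 ± 0.17 (adjusted p = 0.00627). Aurka, the Aurora kinase of spindle poles, was at 8.63, 8.55 and 8.05 in control arrays 1, 2 and 3, 9.89, 9.59 and 9.96 in the Myc arrays, 9.95, 10.18 and 9.93 in the NeuT arrays, 9.12, 9.51 and 9.55 in the Ras arrays, and 9.00, 8.92 and 9.21 in the Src arrays. Myc and NeuT arrays overlapped and lay above the Ras and Src arrays. Myc exceeded Src by 0.77 ± 0.16 (adjusted p = 0.0035), and the difference between Myc and NeuT did not pass the test (adjusted p = 0.55).

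The chromosomal passenger genes encode the Aurora B kinase (Aurkb) and its partners Incenp and survivin (Birc5), and all 3 rose with every oncogene. Birc5 was at 9.58, 9.63 and 9.35 in control arrays 1, 2 and 3, 10.80, 10.65 and 10.76 in the Myc arrays, 10.88, 10.97 and 10.92 in the NeuT arrays, 10.66, 10.60 and 10.72 in the Ras arrays, and 10.31, 10.26 and 10.40 in the Src arrays. Src arrays stood between the controls and the other lines without overlap. NeuT exceeded control by 1.40 ± 0.08 (adjusted p = 2.9e-08), and Ras exceeded Src by 0.34 ± 0.08 (adjusted p = 0.00719). Aurkb was at 7.84, 7.54 and 7.26 in control arrays 1, 2 and 3, 9.20, 9.04 and 8.94 in the Myc arrays, 9.37, 9.41 and 9.34 in the NeuT arrays, 8.47, 8.75 and 8.79 in the Ras arrays, and 8.76, 8.57 and 8.91 in the Src arrays. NeuT arrays were the highest, while Ras and Src arrays overlapped. NeuT exceeded Ras by 0.70 ± 0.14 (adjusted p = 0.0012), and Ras and Src did not differ beyond their spread (-0.07 ± 0.14, adjusted p = 0.752). Incenp had the opposite order from most of the 42 genes: its Src mean (9.00 ± 0.12, SD, n = 3) was above its Ras mean (8.43 ± 0.12), by 0.57 ± 0.12 (adjusted p = 0.00275).

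Checkpoint and anaphase genes rose in all 4 groups, apart from Cdc20 with Src. Separase (Espl1) was at 6.25, 6.17 and 5.76 in control arrays 1, 2 and 3, 7.62, 7.43 and 7.65 in the Myc arrays, 7.73, 8.04 and 8.30 in the NeuT arrays, 6.71, 7.15 and 7.14 in the Ras arrays, and 6.75, 6.76 and 6.94 in the Src arrays. NeuT arrays were the highest, Myc arrays were next, and Ras and Src arrays overlapped. NeuT exceeded Ras by 1.02 ± 0.16 (adjusted p = 0.000243), and Myc exceeded Ras by 0.56 ± 0.16 (adjusted p = 0.0177). Bub1, a kinase that recruits the checkpoint to kinetochores, was at 8.71, 8.87 and 8.17 in control arrays 1, 2 and 3, 10.10, 9.75 and 9.51 in the Myc arrays, 10.17, 9.68 and 9.58 in the NeuT arrays, 10.15, 10.59 and 10.25 in the Ras arrays, and 9.76, 9.67 and 9.68 in the Src arrays. Ras arrays overlapped the NeuT range alone, and the Myc, NeuT and Src ranges overlapped each other. The F test over the oncogenes did not call Bub1, although Ras exceeded Src by 0.63 ± 0.20 (adjusted p = 0.032). Cdc20 was at 8.31, 8.36 and 8.03 in control arrays 1, 2 and 3, 8.97, 8.77 and 8.81 in the Myc arrays, 9.32, 9.40 and 9.56 in the NeuT arrays, 8.94, 8.78 and 9.22 in the Ras arrays, and 8.36, 8.41 and 8.41 in the Src arrays. All 3 Src arrays lay at the top of the control range or just above it, and NeuT arrays were the highest. NeuT exceeded Src by 1.03 ± 0.12 (adjusted p = 2.07e-05). Bub1b, Ttk and Mad2l1, which relay or produce the checkpoint signal, had Src against control differences of 1.21 ± 0.18, 1.22 ± 0.19 and 0.99 ± 0.12.

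Of the 7 centromere and kinetochore genes, all rose with NeuT and Ras, 6 with Myc and 6 with Src. Cenpn, which binds the centromeric nucleosome, was at 6.90, 6.44 and 6.36 in control arrays 1, 2 and 3, 7.77, 7.61 and 7.62 in the Myc arrays, 8.48, 8.53 and 8.63 in the NeuT arrays, 8.02, 7.97 and 8.33 in the Ras arrays, and 7.85, 7.64 and 7.78 in the Src arrays. NeuT arrays were above all others, and Myc and Src arrays overlapped. NeuT exceeded Myc by 0.88 ± 0.13 (adjusted p = 0.000353) and exceeded Ras by 0.44 ± 0.13 (adjusted p = 0.02). Spc25 was at 8.92, 8.94 and 9.71 in control arrays 1, 2 and 3, 9.55, 9.69 and 9.46 in the Myc arrays, 9.88, 9.71 and 9.61 in the NeuT arrays, 10.10, 9.80 and 9.93 in the Ras arrays, and 9.80, 9.68 and 9.68 in the Src arrays. Control array 3 lay inside the range of the lines, and control arrays 1 and 2 lay below all of them. Its F test over the oncogenes was not called. Without control array 3, Spc25 rose by 0.80 ± 0.11 with NeuT and 1.01 ± 0.11 with Ras. Its call was fragile: the pooled difference was 0.41 (adjusted p = 0.0558) with control array 1 left out and 0.42 (0.0542) with control array 2 left out, and the NeuT difference missed the threshold without control array 1 (0.116), control array 2 (0.113), NeuT array 1 (0.101) or NeuT array 2 (0.063). Cenpe, a kinetochore-bound kinesin, was at 9.43, 9.42 and 8.76 in control arrays 1, 2 and 3, 10.37, 10.39 and 10.14 in the Myc arrays, 10.37, 10.19 and 9.96 in the NeuT arrays, 10.35, 10.21 and 10.44 in the Ras arrays, and 9.73, 9.52 and 9.61 in the Src arrays. Src arrays lay just above control arrays 1 and 2, and the arrays of the other 3 groups overlapped each other. Ras exceeded Src by 0.71 ± 0.16 (adjusted p = 0.00409). Within the Ndc80 complex, Nuf2 (Ras 9.85 ± 0.17, NeuT 9.32 ± 0.20, SD, n = 3) and Ndc80 (Ras 9.67 ± 0.21, NeuT 9.07 ± 0.22) were both higher with Ras than with NeuT.

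The 9 kinesins rose with Myc, NeuT and Ras, and 8 rose with Src. Kif2c, a microtubule depolymerase at centromeres, was at 7.38, 7.50 and 6.84 in control arrays 1, 2 and 3, 8.59, 8.38 and 8.37 in the Myc arrays, 9.13, 9.12 and 9.24 in the NeuT arrays, 8.54, 8.62 and 8.97 in the Ras arrays, and 8.35, 8.14 and 8.40 in the Src arrays. NeuT arrays were the highest, and Myc and Src arrays overlapped. NeuT exceeded Myc by 0.71 ± 0.15 (adjusted p = 0.00565) and exceeded Src by 0.86 ± 0.15 (adjusted p = 0.00109). Kif15, which backs up Kif11 in keeping spindle poles apart, was at 7.73, 7.87 and 7.29 in control arrays 1, 2 and 3, 8.80, 8.53 and 8.68 in the Myc arrays, 8.91, 8.59 and 8.37 in the NeuT arrays, 8.75, 9.13 and 8.93 in the Ras arrays, and 8.72, 8.36 and 8.60 in the Src arrays. The ranges of the 4 oncogene groups overlapped, apart from Ras, whose lowest array was above all Src arrays, and all were above the controls. No pair of oncogenes differed for Kif15 at the threshold, the largest difference being Ras against Src (0.37 ± 0.17, adjusted p = 0.117). Kif22, a chromosome-arm motor, was at 7.08, 7.05 and 6.46 in control arrays 1, 2 and 3, 8.06, 7.88 and 7.75 in the Myc arrays, 8.45, 8.74 and 8.33 in the NeuT arrays, 7.92, 8.07 and 8.05 in the Ras arrays, and 7.39, 7.07 and 7.53 in the Src arrays. Src array 2 lay within the control range, and NeuT arrays were the highest. NeuT exceeded Src by 1.18 ± 0.17 (adjusted p = 0.000163). Kif11 differed less: its oncogene means were 9.97 ± 0.19 (Myc), 9.72 ± 0.14 (NeuT), 10.00 ± 0.09 (Ras) and 10.03 ± 0.03 (Src; SD, n = 3), against 8.33 ± 0.48 in the controls.

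**Figure D5:**
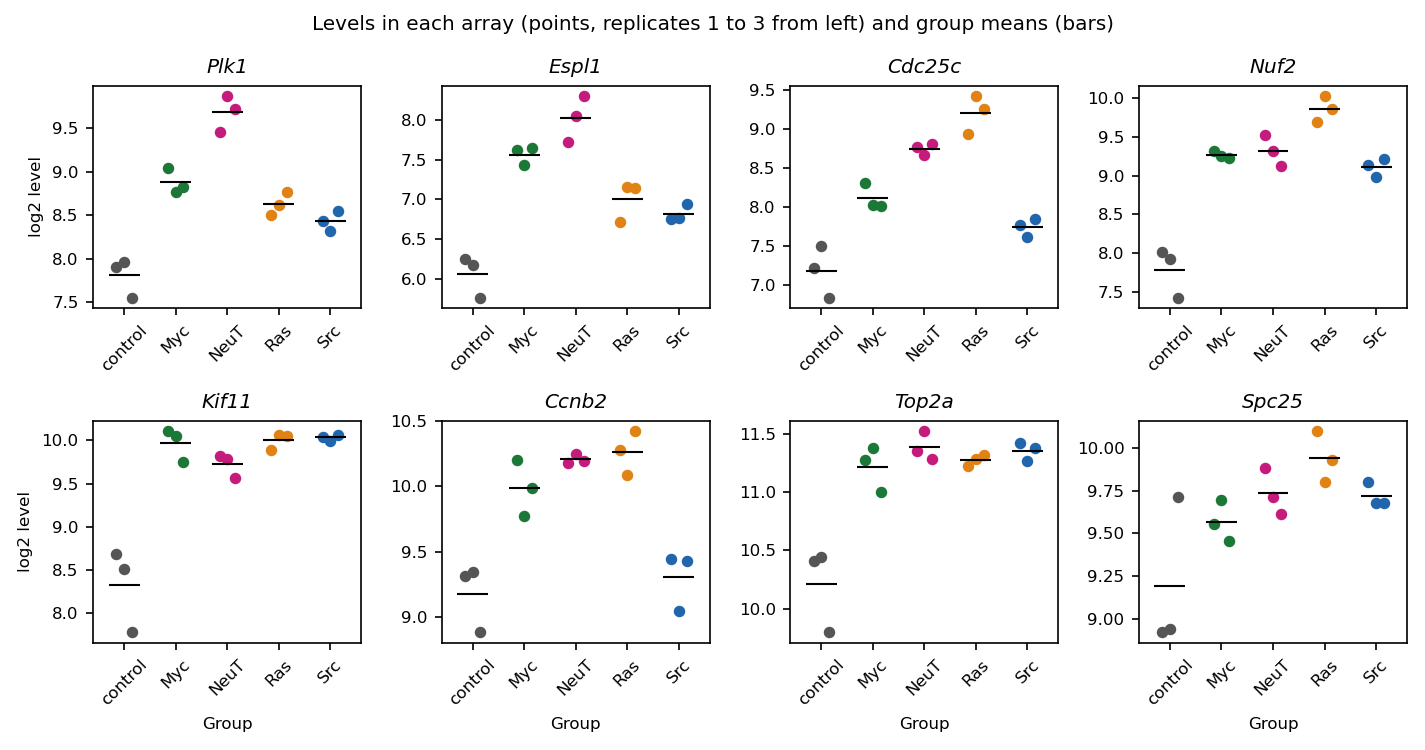
Log2 level (vertical axis, scaled for each gene) of 8 genes in each array (points) with group means (bars), by group on the horizontal axis. Plk1 and Espl1 are highest with NeuT, and Cdc25c and Nuf2 with Ras. Kif11 and Top2a differ little across the oncogenes, Ccnb2 in the Src arrays overlaps the controls, and Spc25 is high in control array 3.

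Spindle assembly and cytokinesis genes (Tpx2, Prc1, Anln and Ect2) all rose with Myc, NeuT and Ras, but 2 of 4 did with Src, and all 4 were lower in Src than in NeuT and in Ras. Tpx2, the activator of Aurka on the spindle, was at 9.21, 9.18 and 8.58 in control arrays 1, 2 and 3, 10.20, 10.06 and 9.94 in the Myc arrays, 10.31, 10.42 and 10.35 in the NeuT arrays, 9.89, 10.17 and 10.10 in the Ras arrays, and 9.60, 9.47 and 9.65 in the Src arrays. Src arrays stood between the controls and the other lines without overlap. NeuT exceeded control by 1.37 ± 0.14 (adjusted p = 5.43e-06), and Ras exceeded Src by 0.48 ± 0.14 (adjusted p = 0.0214). Ect2, the exchange factor that switches on RhoA at the cleavage site, was at 9.16, 9.04 and 8.45 in control arrays 1, 2 and 3, 9.92, 9.88 and 9.48 in the Myc arrays, 10.16, 10.15 and 9.76 in the NeuT arrays, 9.65, 9.95 and 9.91 in the Ras arrays, and 9.20, 9.10 and 9.12 in the Src arrays. Src arrays overlapped the upper controls. NeuT exceeded Src by 0.88 ± 0.18 (adjusted p = 0.00246). Prc1 was at 9.14, 9.22 and 8.47 in control arrays 1, 2 and 3, 9.67, 9.59 and 9.55 in the Myc arrays, 10.06, 9.99 and 9.96 in the NeuT arrays, 9.76, 9.75 and 9.89 in the Ras arrays, and 9.16, 8.92 and 9.14 in the Src arrays. Its Src arrays fell within the control range, and all other oncogene arrays were above the controls. NeuT exceeded Src by 0.93 ± 0.15 (adjusted p = 0.000468). Anillin (Anln), a scaffold of the contractile ring, rose with Src by 0.77 ± 0.16 (adjusted p = 0.00206).

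Genes of mitotic chromosome structure (Top2a, Mki67, Ncapg, Ncapd2, Smc2 and Smc4) rose with every oncogene. Ncapd2 was at 6.95, 6.89 and 6.55 in control arrays 1, 2 and 3, 8.14, 8.12 and 7.94 in the Myc arrays, 8.71, 8.72 and 8.90 in the NeuT arrays, 7.81, 7.96 and 8.01 in the Ras arrays, and 7.92, 8.02 and 8.07 in the Src arrays. NeuT arrays were clearly the highest, and the Myc, Ras and Src arrays overlapped. NeuT exceeded Ras by 0.85 ± 0.11 (adjusted p = 3.37e-05) and exceeded Src by 0.77 ± 0.11 (adjusted p = 0.00015). Smc4 was at 10.30, 10.42 and 10.00 in control arrays 1, 2 and 3, 10.95, 10.92 and 10.79 in the Myc arrays, 10.95, 10.92 and 10.64 in the NeuT arrays, 11.33, 11.14 and 11.37 in the Ras arrays, and 10.73, 10.65 and 10.67 in the Src arrays. Ras arrays were above all others, in contrast with Ncapd2. Ras exceeded NeuT by 0.44 ± 0.11 (adjusted p = 0.00882) and exceeded Src by 0.59 ± 0.11 (adjusted p = 0.00127). Mki67, the proliferation antigen that coats mitotic chromosomes, rose by 1.23 ± 0.14 with Ras and 0.70 ± 0.14 with Src. Top2a, the decatenating topoisomerase, rose by 1.09 ± 0.12 in the pooled lines. It was the only one of the 42 with a second probe set of its own. That probe set had a mean of 5.21 against 11.09 and did not follow the first: its pooled difference was -0.00, with 0.65 in the Ras group (adjusted p = 0.0382) and -0.61 in the Src group (0.0481).

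Other genes of the same machinery were also compared between the pooled lines and control, where 15.4% of all genes rose and 13.4% fell (12.3% and 13% without control array 3). Of 33 other kinetochore and checkpoint genes measured, 32 rose and 0 fell (median 0.89; 30, 0 and 0.81 without control array 3), led by Cenpu (1.66 ± 0.11), a subunit of the inner kinetochore, and Ska1 (1.66 ± 0.12), a microtubule-binding factor. Among 20 other spindle and cytokinesis genes, 17 rose and 0 fell (median 0.83; 16, 0 and 0.75 without that array), and the spindle protein Ckap2l (1.43 ± 0.06) and the RhoA regulator Racgap1 (1.45 ± 0.09) had the smallest p-values. Of 11 other regulators of mitotic entry and exit, 8 rose and 0 fell (median 0.57; 8, 0 and 0.48 without it), among them Fbxo5, an inhibitor of the anaphase-promoting complex (1.57 ± 0.13), and Cdc25b (0.82 ± 0.08). Ccnb1 was not analysed here. These lists were chosen with earlier results of these data known.

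Of 13 subunits of the anaphase-promoting complex itself, 7 rose and 0 fell in the pooled lines (median 0.31), beside 15.4% and 13.4% of all genes. Without control array 3, 3 rose and 0 fell (median 0.13), beside 12.3% and 13%. Cdc26 (0.54 ± 0.08) and Anapc5 (0.37 ± 0.07) had the smallest p-values. Anapc2 fell by 0.65 with Ras (adjusted p = 0.00212), and Anapc13 fell by 0.42 with NeuT (adjusted p = 0.0396), which was lost without control array 3 (0.161). Among 16 other condensin and cohesin genes, 10 rose and 1 fell (median 0.52), and without control array 3, 9 rose and 2 fell (median 0.47). The condensin subunit Ncaph (1.44 ± 0.11) and sororin (Cdca5, 1.29 ± 0.11) rose, and Esco1, a cohesin acetyltransferase, fell by 0.65 (adjusted p = 0.00109). Wapl, which releases cohesin, fell by 0.81 with Src (adjusted p = 0.00129) and by 0.66 with NeuT (0.00428), and its pooled difference was -0.33 (adjusted p = 0.0572, and 0.0109 without control array 3).

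Of 13 centriole and centrosome genes, 10 rose and 1 fell in the pooled lines (median 0.35), beside 15.4% and 13.4% of all genes. Without control array 3, 7 rose and 1 fell (median 0.26), beside 12.3% and 13%. The centriole kinase Plk4 (0.97 ± 0.09) and gamma-tubulin (Tubg1, 0.94 ± 0.10) rose, and Cenpj, a centriole elongation factor, fell by 0.73 (adjusted p = 0.000992). Of 20 transcription regulators of mitotic genes, 11 rose and 2 fell (median 0.39), and without control array 3, 8 rose and 2 fell (median 0.23). The repressors E2f7 (1.09 ± 0.08) and E2f8 (1.48 ± 0.13) had the smallest p-values among those that rose. Foxm1 (1.39 ± 0.13) and Mybl2 (0.77 ± 0.08), which drive late cell cycle transcription, rose as well, and both were singled out after their values were seen. The 2 that fell were Tfdp2, a partner of E2F proteins (by 0.83, adjusted p = 1.59e-05), and the retinoblastoma gene Rb1 (by 0.98, adjusted p = 7.87e-05; named because it completes the count). E2f5 fell by 0.99 in the Src group (adjusted p = 6.2e-05).

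The share of promoters with a CHR match was lower in these lists than in the 42 genes. It was 37.1% for the other kinetochore genes, 41.7% for the spindle and cytokinesis genes, 22.2% for entry and exit regulators, 14.3% for the anaphase-promoting complex, 33.3% for condensin and cohesin genes, 22.2% for centriole genes and 35.0% for transcription regulators. Promoters of all genes on the array held it in 14.8%. These shares rest on 9 to 35 promoters a list, and the difference from the 42 genes was not tested.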

How the data were processed

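Per the labels' protocols, total RNA came from a Trizol extraction and was labelled through WT-Ovation Pico amplification. The deposited values are log2 expression of 35556 probe sets on 15 arrays, already normalized by the authors; per the submitters' processing notes, the tools were RMA and Affymetrix Expression Console 1.1. The genome build is not given in the sources used here. Of the probe sets, 21789 were assigned to 1 gene and used, which gave 19938 genes with the brightest probe set of each. Low values were not filtered.

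A model with 5 group means was fitted with limma 3.58.1 under R 4.3.3, using lmFit and eBayes. Two-sided p-values were adjusted over the 19938 genes (Benjamini-Hochberg), and genes rose, fell or differed at an adjusted p under 0.05. The fits recovered known changes in simulated data. Motifs were counted with Python 3.11.15 and pandas 2.3.3, and figures drawn with matplotlib 3.10.9.

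The 42 genes, the pathway lists and the marker lists were chosen with earlier results of these data known. Values in every array are given for the genes with the largest and smallest F statistic over the 5 groups in each role, those not called higher with some oncogene, and the largest difference in each pair of oncogenes; from each pathway list, the 2 smallest pooled p-values and up to 2 genes called lower. Alternatives were median centring, quantile normalization, a filter on low genes, averaged probe sets, trended robust variance, array weights, fits of the compared groups alone, the replicate number as a block, a 2-fold minimum, each array left out in turn, and motifs on the gene strand.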

Additional observations from a re-analysis of the deposited data

Results flagged for a closer look

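In a direct test of each pair of oncogene groups with limma, part of the 42 mitosis and spindle genes differed. The count was 9 between the Myc and NeuT groups (21.4%, against 14.9% of all genes), 8 between Myc and Ras (19%, below the 28.4% of all genes), 16 between Myc and Src (38.1% against 18.9%), 18 between NeuT and Ras (42.9% against 28.1%), 28 between NeuT and Src (66.7% against 20.2%) and 19 between Ras and Src (45.2% against 26.2%).

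The largest log2 difference in each pair was -0.88 for Cenpn (Myc minus NeuT), -1.09 for Cdc25c (Myc minus Ras), 0.77 for Aurka (Myc minus Src), 1.06 for Plk1 (NeuT minus Ras), 1.39 for Nek2 (NeuT minus Src) and 1.46 for Cdc25c (Ras minus Src). Each group has 3 arrays, so no array was tested as an outlier.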

How the results depend on the processing

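Counts of genes that rose against control stayed within 1.5 times under all alternatives but 1: with a 2-fold minimum, 15 rose with Src in place of 36. That minimum gave 35 in the pooled lines, 31 with Myc, 36 with NeuT and 34 with Ras. With control array 3 left out as well, it gave 20 in the pooled lines, 20 with Myc, 31 with NeuT, 24 with Ras and 7 with Src. On all 15 arrays, the 2-fold minimum left 6 genes in the F test, 0 for Myc against NeuT, 1 for Myc against Ras, 0 for Myc against Src, 2 for NeuT against Ras, 5 for NeuT against Src and 1 for Ras against Src. Array weights gave 19 for Myc against NeuT and 13 for Myc against Ras, and a fit of the compared groups alone gave 18 for Myc against NeuT. With single arrays left out, counts ranged from 7 to 17 for Myc against NeuT, 3 to 16 for Myc against Ras, 6 to 20 for Myc against Src and 10 to 25 for NeuT against Ras. Shares of all genes were not counted for these alternatives, apart from the fit without control array 3 and no 2-fold minimum. The Src against control difference of Prc1 was -0.058 with array weights and ran from -0.11 to 0.27 with single arrays left out, and that of Ccnb2 from -0.023 to 0.26; both were lowest without control array 3. Of 36 fold changes followed, 29 kept direction and side of the threshold throughout. Spc25 with NeuT missed it after quantile normalization (adjusted p = 0.068) and in the fit of the compared groups alone (0.136), as did Spc25 with Ras (0.0641) and Ndc80 with NeuT (0.0516) there. On the gene strand alone, 62.2% of promoters held a CHR match and 51.4% a CCAAT match.

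The samples were not treated as paired. Over 30 pairs of arrays with the same replicate number, deviations correlated from -0.08 to 0.12 (median 0.02), with 3 above 0.1. Over 60 pairs with different numbers they correlated from -0.13 to 0.12 (median -0.01), with 1 above 0.1. With the replicate number as a block, 37 genes rose with Src and 17 differed between NeuT and Ras, in place of 36 and 18, and the other counts were equal. The fit of the compared groups alone gave no separate value for the pooled lines. With 3 arrays a group, their number limits the precision.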
